A study of Mus musculus with 6 samples.

Results

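The core B-lineage transcription factors examined here were 10 genes, Pax5, Ebf1, Ikzf1, Ikzf2, Ikzf3, Foxo1, Foxo3, Sox4, Lef1 and Pou2af1, of 19938 genes measured on whole-transcript arrays. They were chosen by name. Where several probe sets carry only 1 symbol the one with the highest mean over the 6 arrays stands for the gene, but each of the 10 had 1 such probe set. The cells were C57Bl/6 pre-B cells transformed by BCR-ABL1, the fusion kinase of Philadelphia chromosome-positive acute lymphoblastic leukaemia, and were labelled Bcor fl/Y, a floxed allele of the X-linked corepressor gene Bcor in a male. One group of 3 arrays came from cells transduced with PMIP-CRE-ERT2, whose Cre recombinase is switched on by tamoxifen, and the other 3 came from cells with PMIP-ERT2, which lacks Cre. Both groups carried the floxed allele, were exposed to 4OH-Tamoxifen at 0.5 micromolar for 2 days and were selected for puromycin resistance. No arm here carried Cre with an intact Bcor, so loss of Bcor and Cre activity itself cannot be told apart. Nothing in the labels ties the arrays to separate cultures or clones. The p-values therefore measure the spread between these arrays alone, and that spread may be technical.

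B cell identity is built in layers. EBF1 opens chromatin at B-lineage genes and activates Pax5, and PAX5 then keeps B cell genes on and silences genes of other lineages. AKT kinase phosphorylates FOXO1 and expels it from the nucleus. In early B cells FOXO1 drives the recombinase genes Rag1 and Rag2 and the interleukin 7 receptor gene Il7r. Ikaros zinc finger proteins restrain pre-B cell proliferation, and the gene of Ikaros itself, IKZF1, is recurrently lost in human leukaemia with BCR-ABL1. SOX4 and LEF1 are DNA-bending factors of progenitor B cells, and POU2AF1 is a coactivator that joins octamer-binding factors on DNA.

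Foxo1 and Sox4 were the members that passed the threshold, and the sequences before their start sites are printed for that reason. The 250 bases before the start were taken from RefSeq on GRCm38.p6, and 8 of the 10 members were in that promoter table. Foxo1 lies at chr3:52268087-52268336 on the plus strand and Sox4 at chr13:28953700-28953949 on the minus strand, both written 5′ to 3′ along their own strand. Capitals mark letters that matched a searched motif.
Foxo1: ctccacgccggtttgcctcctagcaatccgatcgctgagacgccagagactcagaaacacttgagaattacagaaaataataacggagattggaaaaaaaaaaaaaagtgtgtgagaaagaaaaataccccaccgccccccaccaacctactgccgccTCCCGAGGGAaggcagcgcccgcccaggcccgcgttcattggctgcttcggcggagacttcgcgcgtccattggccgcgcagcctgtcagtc
Sox4: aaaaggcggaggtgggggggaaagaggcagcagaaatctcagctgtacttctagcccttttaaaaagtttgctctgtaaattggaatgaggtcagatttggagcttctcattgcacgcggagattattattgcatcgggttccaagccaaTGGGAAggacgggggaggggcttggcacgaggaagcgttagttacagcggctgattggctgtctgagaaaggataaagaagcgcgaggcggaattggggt
The motifs were searched on both strands of the 300 bases from 250 before to 50 after each start. The EBF letters CCCNNGGGA matched 1 of the 13 windows of these 8 genes, that of Foxo1, on both strands at overlapping positions, and 6.56% of all 32851 promoter windows held them. The Ikaros letters TGGGAA matched 5 of the 13 windows, those of Sox4, Ebf1 and Lef1, against 25.6% of all windows. The windows of Lef1 starts 1 and 2 overlap and hold the same TGGGAA site, which is counted in both. The BCL6 letters TTCCTNGAA, the FOXO letters TGTTTAC and the octamer ATGCAAAT matched 0 of the 13 windows, against 1.59%, 3.65% and 1.74% of all windows. The E-box CAGGTG matched 1 of the 13, of Lef1 (20.2% of all windows), and the LEF/TCF letters CTTTGA matched 2, of Ebf1 and Lef1 (16.0%). A match is a description of letters and not a measured binding site. The Foxo1 window was 61.3% G and C and the Sox4 window 52.0%, against a median of 52.7% over all windows.

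The arrays had median log2 values of 8.61 to 8.68 in Cre-ERT2 and 8.61 to 8.66 in ERT2. Bcor itself had log2 levels of 9.08, 9.22 and 9.18 in the Cre-ERT2 arrays, against 10.07, 10.11 and 10.17 in the ERT2 arrays, so all 3 Cre-ERT2 arrays were lower. The fold change was -0.96 (SE 0.0491, limma adjusted p = 2.11e-05), and the sources do not say whether its probe set lies in the deleted part. Among pre-B markers, Igll1, a surrogate light chain of the pre-B cell receptor, averaged 14.25 in Cre-ERT2 and 14.20 in ERT2, and the receptor component Cd79a averaged 13.31 in Cre-ERT2 and 13.28 in ERT2. Of 15 measured pre-B markers 3 rose (Dntt, Cd22 and Cd24a), 3 fell (Rag2, Rag1 and Il7r) and 9 did not pass, where 7.03% of all genes were called. The Cd24a call was near the threshold (limma adjusted p = 0.0453). The deposited values carry no detection limits, so no marker of another cell type can be called absent. The mean log2 level over 13 myeloid markers ranged from 8.05 to 8.09 in Cre-ERT2 and from 8.06 to 8.09 in ERT2, and Lyz2 (0.45) and Fcgr1 (0.35) rose while Mrc1 fell by 0.54. The Fcgr1 call ended without replicate 1 or 2 of Cre-ERT2 or replicate 2 or 3 of ERT2 (adjusted p up to 0.112). Over 12 T and NK cell markers it ranged from 7.87 to 7.92 in Cre-ERT2 and from 7.95 to 8.02 in ERT2, with Ncr1, of NK cells, the 1 called member (-0.23, and not called without Cre-ERT2 replicate 1, adjusted p = 0.0529). Over 7 plasma cell markers it ranged from 10.60 to 10.61 in Cre-ERT2 and from 10.57 to 10.66 in ERT2, with Xbp1 higher and Jchain lower. Of 6 erythroid and megakaryocyte markers and 7 stromal markers limma called 0, with 0 and 2 at an unadjusted p under 0.05. At least 4557 of all 19938 genes had such an unadjusted limma p. The part of such markers in the results was not tested.

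Most of the 10 factors changed little. Over all 10, limma called 1 higher (Sox4) and 1 lower (Foxo1) at a Benjamini-Hochberg adjusted p under 0.05, and 8 did not pass. Over all 19938 genes 7.03% were called, 4.05% higher and 2.98% lower. The median log2 fold change of the members was 0.0013, against -0.037 over all genes. In these bulk samples fewer cells expressing a gene and less RNA per cell cannot be told apart. The 95% intervals of the 8 factors that did not pass lay between -0.22 and 0.15, which is 85.6% to 110.9% of the ERT2 level. A change beyond those bounds in either direction was outside all 8 intervals, although a smaller one was not.

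**Figure D1:**
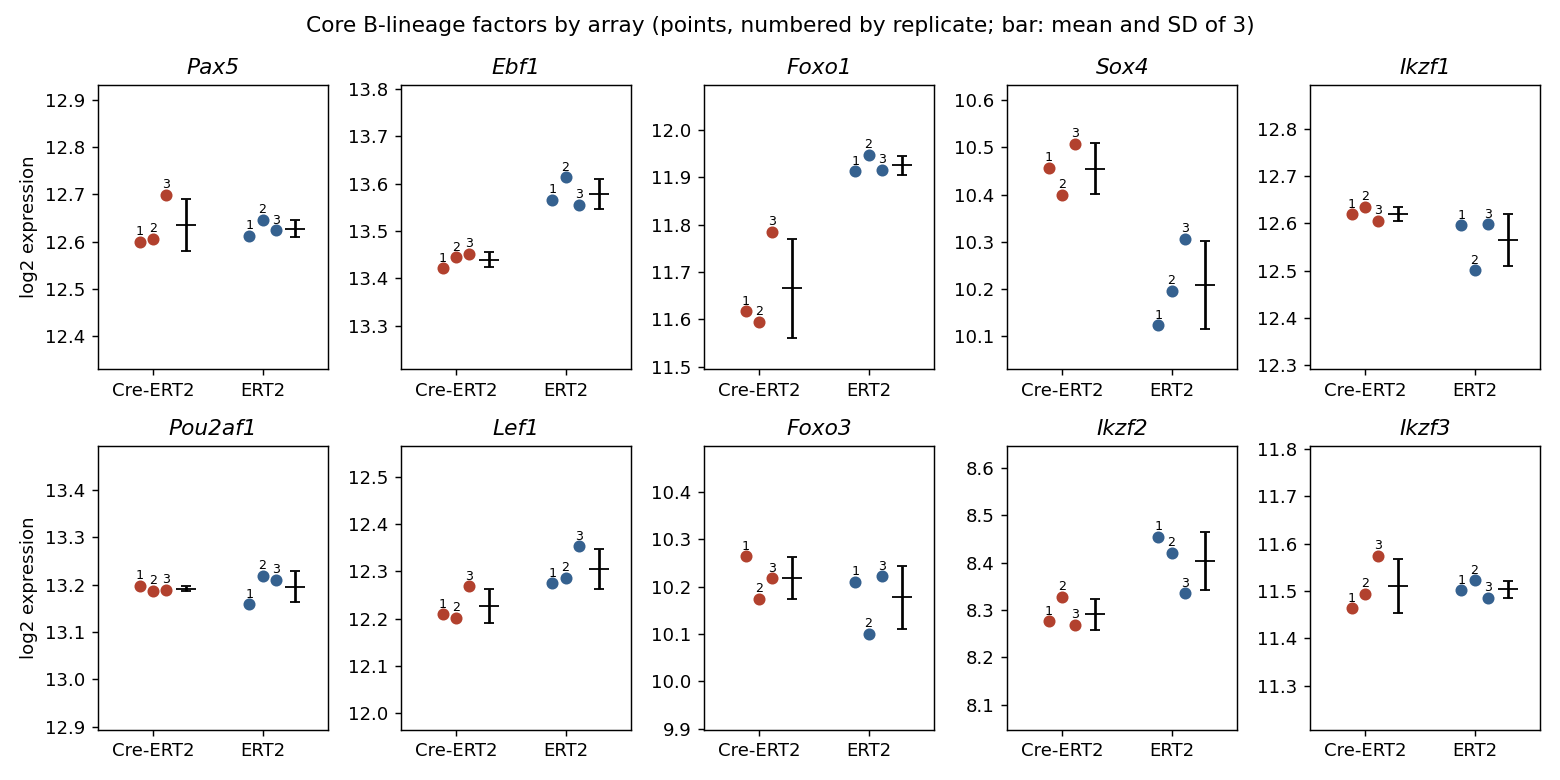
Log2 expression (y axis, 0.6 log2 units in each panel) of the 10 factors in the 3 Cre-ERT2 and 3 ERT2 arrays, with points numbered by replicate and bars for the mean and SD. The Cre-ERT2 points of Foxo1 and Ebf1 all lie below, and those of Sox4 all above, the ERT2 points.

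Ebf1 and Pax5 stand at the head of the hierarchy. Ebf1 had log2 levels of 13.42, 13.44 and 13.45 in the Cre-ERT2 arrays, against 13.57, 13.61 and 13.56 in the ERT2 arrays. All 3 Cre-ERT2 arrays were lower, by more than the spread within either group, yet the change was small: the means were 13.44 ± 0.0158 in Cre-ERT2 and 13.58 ± 0.0311 in ERT2 (SD, n = 3 each), a fold change of -0.14 (SE 0.0373, limma adjusted p = 0.0627), or 90.8% of the ERT2 level. Its adjusted p was under the threshold with an intensity trend (0.00448), with array weights (0.0214) and without the dimmest 30% (0.0312) or 50% (0.0204) of genes. With any 1 array left out it stayed above the threshold (adjusted p from 0.0812 to 0.183). So it did with a replicate block (0.125) and after quantile normalization (0.0797), median centring (0.116) or cyclic loess (0.0914).

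Pax5 had levels of 12.60, 12.61 and 12.70 in the Cre-ERT2 arrays, against 12.61, 12.65 and 12.62 in the ERT2 arrays. The groups overlapped, and Cre-ERT2 replicate 3 was the highest of the 6. The log2 fold change was 0.0074 (SE 0.0415, limma adjusted p = 0.931), with a 95% interval from -0.087 to 0.10, and it was -0.024 without Cre-ERT2 replicate 3. The coactivator gene Pou2af1 had 13.20, 13.19 and 13.19 in Cre-ERT2, against 13.16, 13.22 and 13.21 in ERT2. These overlapped too, and its fold change of -0.0045 (95% interval -0.089 to 0.080) had the narrowest interval of the 10.

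Foxo1, the lower of the called pair, had log2 levels of 11.62, 11.59 and 11.78 in the Cre-ERT2 arrays, against 11.91, 11.95 and 11.92 in the ERT2 arrays. Cre-ERT2 replicate 3 lay nearest to the ERT2 arrays but below all of them. The means were 11.67 ± 0.104 in Cre-ERT2 and 11.93 ± 0.0196 in ERT2 (SD, n = 3 each). The fold change was -0.26 (SE 0.0542, limma adjusted p = 0.0240), so that Foxo1 fell to 83.5% of its ERT2 level. Without Cre-ERT2 replicate 3 it was -0.32 (adjusted p = 0.00423), and with any other array left out the call was lost (adjusted p from 0.0715 to 0.102).

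Its relative Foxo3 had 10.26, 10.17 and 10.22 in Cre-ERT2, against 10.21, 10.10 and 10.22 in ERT2, with overlapping groups. The fold change of Foxo3 was 0.041 (SE 0.0470, limma adjusted p = 0.634, 95% interval -0.066 to 0.15). The within-array difference between the Foxo1 and Foxo3 probe sets was 1.45 ± 0.109 in Cre-ERT2 and 1.75 ± 0.0863 in ERT2 (SD, n = 3 each), a shift of -0.30 with groups apart. An exact two-sided permutation test gave p = 0.1, the smallest that 3 against 3 arrays allow, and 0.12 adjusted over the 6 pairs of factors tested, so 3 arrays a group cannot reach the threshold here.

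Sox4, which is needed for the pro-B cell stage, had log2 levels of 10.46, 10.40 and 10.51 in the Cre-ERT2 arrays, against 10.12, 10.20 and 10.31 in the ERT2 arrays. All 3 Cre-ERT2 arrays were higher, and the ERT2 arrays were the more widely spread, with replicate 3 the highest of them. The means were 10.45 ± 0.0539 in Cre-ERT2 and 10.21 ± 0.0919 in ERT2 (SD, n = 3 each), a fold change of 0.25 (SE 0.0545, limma adjusted p = 0.0315), or 1.19-fold. Without ERT2 replicate 3 it was 0.29 (adjusted p = 0.0204). The call was lost with any other array left out (adjusted p from 0.0619 to 0.111) and after quantile normalization (0.0526).

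Lef1, the nuclear partner of beta-catenin, had 12.21, 12.20 and 12.27 in Cre-ERT2, against 12.27, 12.29 and 12.35 in ERT2. The Cre-ERT2 arrays were all lower, the nearest pair by less than the SD of either group, and the fold change was -0.078 (SE 0.0410, limma adjusted p = 0.294, 95% interval -0.17 to 0.015). The difference between the Sox4 and Lef1 probe sets was -1.77 ± 0.0265 in Cre-ERT2 and -2.10 ± 0.0526 in ERT2 (SD, n = 3 each), a shift of 0.32 that was 0.30 to 0.35 with any array left out (exact permutation p = 0.1, adjusted p = 0.12). These offsets between probe sets carry probe effects, so only their shift between groups is read.

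**Figure D2:**
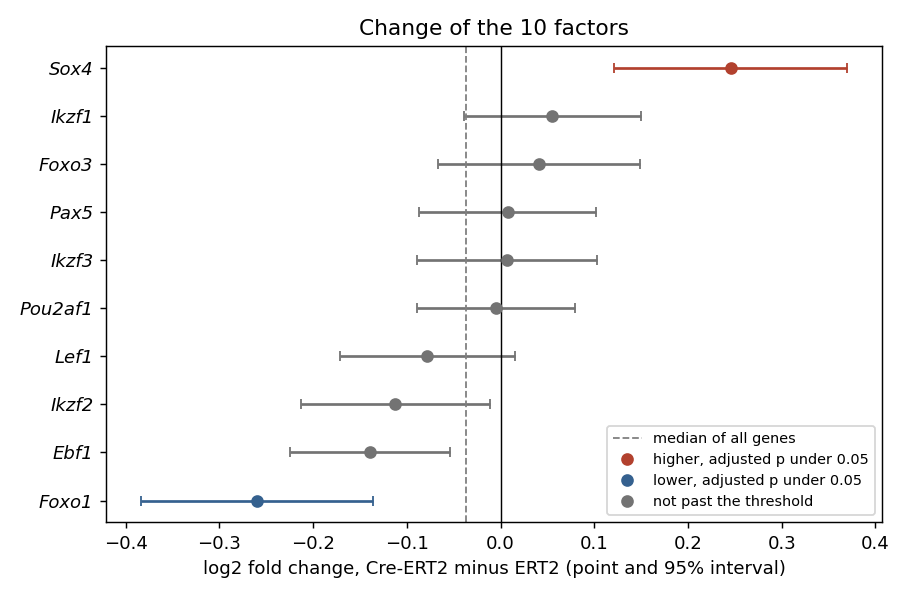
Log2 fold change of each factor, Cre-ERT2 minus ERT2 (x axis), with its 95% interval from limma and the median of all genes as a dashed line. Sox4 at 0.25 and Foxo1 at -0.26 are the coloured points, and the intervals of Ebf1 and Ikzf2, which were not called, also lie wholly below 0.

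Of the 3 Ikaros family members limma called 0, with 1 (Ikzf2) at an unadjusted p under 0.05. Of all 19938 genes 7.03% were called, and at least 4557 had an unadjusted limma p under 0.05. Ikzf1, which encodes Ikaros, had levels of 12.62, 12.64 and 12.60 in the Cre-ERT2 arrays, against 12.60, 12.50 and 12.60 in the ERT2 arrays. The Cre-ERT2 arrays were all higher but replicate 3 was within 0.01 of ERT2 replicates 1 and 3, and the fold change was 0.055 (SE 0.0414, limma adjusted p = 0.457, 95% interval -0.039 to 0.15). Ikzf2, which encodes Helios and is best known in T cells, had 8.28, 8.33 and 8.27 in Cre-ERT2, against 8.45, 8.42 and 8.34 in ERT2. All Cre-ERT2 arrays were lower, with replicate 2 and ERT2 replicate 3 almost touching, and the fold change was -0.11 (SE 0.0442, limma adjusted p = 0.174, 95% interval -0.21 to -0.012). In every array Ikzf2 lay below the median over the tested genes, which was 8.84 to 8.87. Ikzf3, which encodes Aiolos and rises with B cell maturation, had 11.46, 11.49 and 11.57 in Cre-ERT2, against 11.50, 11.52 and 11.49 in ERT2, overlapping and with a fold change of 0.0071 (95% interval -0.089 to 0.10).

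Between the Ikaros relatives, the Ikzf1 minus Ikzf2 difference was 4.33 ± 0.0190 in Cre-ERT2 and 4.16 ± 0.0929 in ERT2 (SD, n = 3 each), a shift of 0.17 (exact permutation p = 0.1). The Ikzf2 minus Ikzf3 difference shifted by -0.12 (exact permutation p = 0.1) and that of Ikzf1 minus Ikzf3 by 0.048, with overlapping groups (exact permutation p = 0.5). The Pax5 minus Ebf1 difference was -0.80 ± 0.0452 in Cre-ERT2 and -0.95 ± 0.0183 in ERT2 (SD, n = 3 each), a shift of 0.15 with groups apart (exact permutation p = 0.1). Adjusted over the 6 pairs these p-values were 0.12, and 0.5 for Ikzf1 minus Ikzf3.

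**Figure D3:**
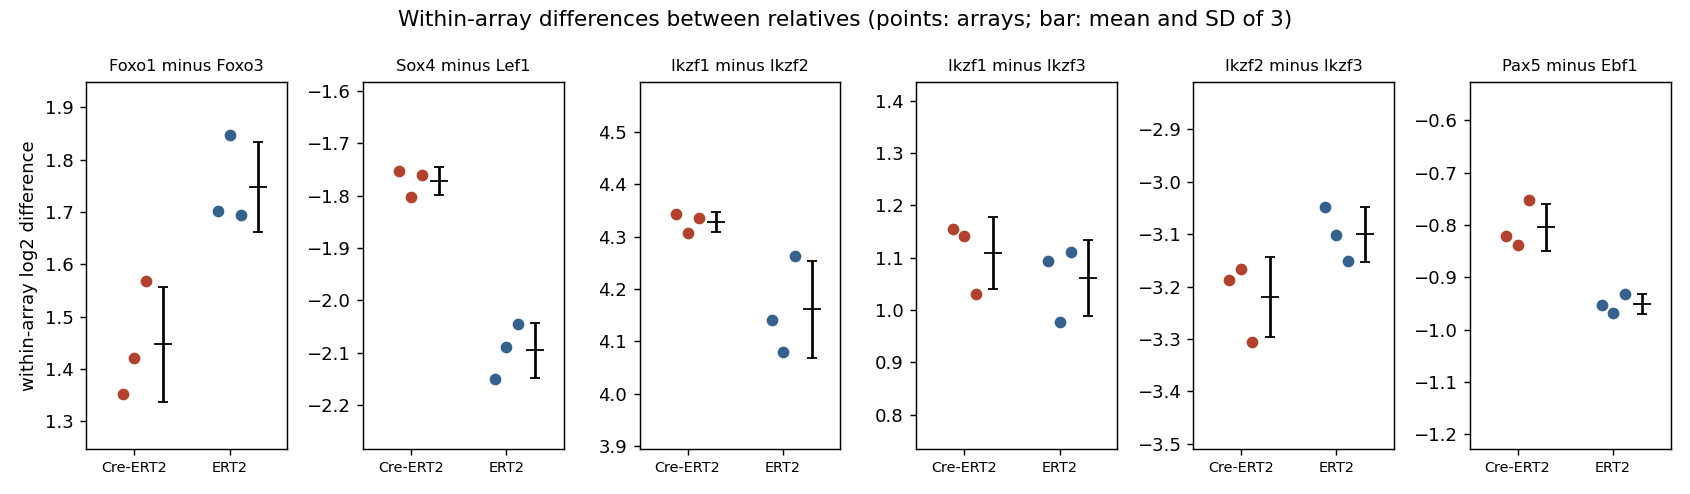
Within-array log2 difference between 2 of the factors (y axis, 0.7 log2 units in each panel) in the Cre-ERT2 and ERT2 arrays, with points for arrays and bars for the mean and SD. The groups are apart in 5 of the 6 panels and overlap for Ikzf1 minus Ikzf3.

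Counted by separation alone, the groups did not overlap for 6 of the 10 factors, 4 lower (Foxo1, Ebf1, Ikzf2 and Lef1) and 2 higher (Sox4 and Ikzf1). Over all genes the groups were apart for 29.9%, 20.3% lower and 9.56% higher. Cre-ERT2 replicate 3 was the highest of its group for 6 of the 10 factors and had the highest array median, and the part of this array in the results was not tested beyond leaving it out. The factors were measured with a residual SD of 0.0232 (Pou2af1) to 0.0754 (Sox4), with a median of 0.0418 against 0.0587 over all genes, and the called pair had the highest residual SDs of the 10.

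**Figure D4:**
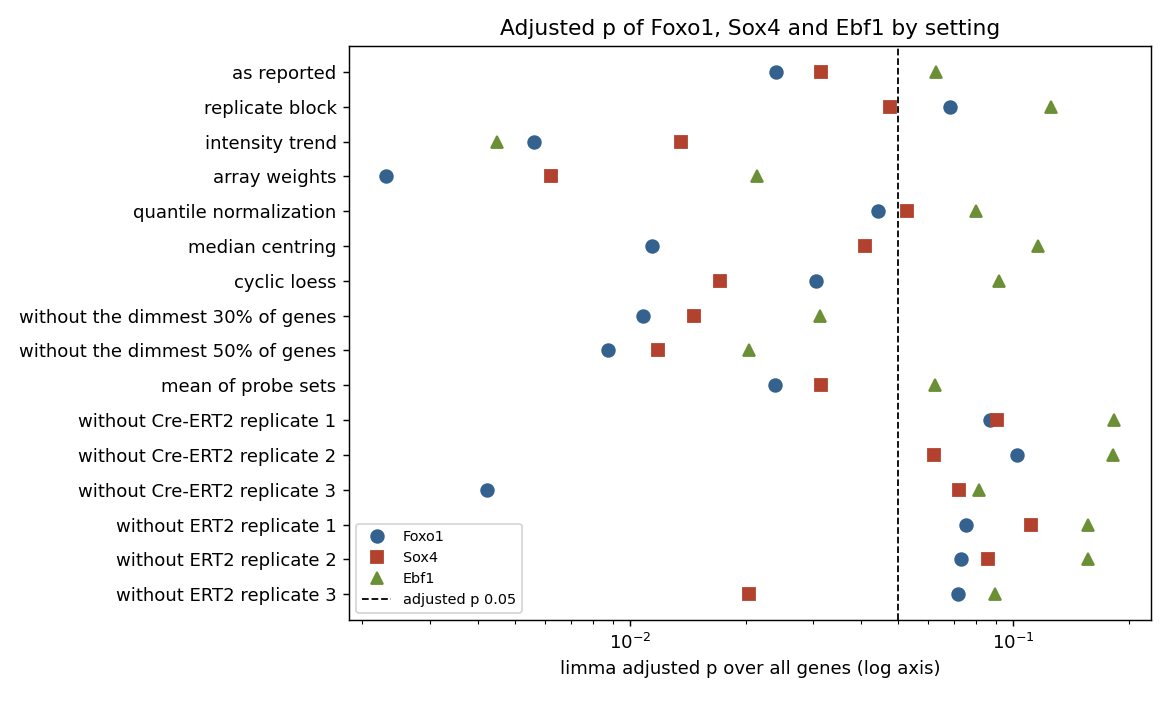
Adjusted p over all genes (x axis, log scale) of Foxo1, Sox4 and Ebf1 under each setting (rows), with the threshold of 0.05 as a dashed line. With 1 array left out, Foxo1 stays under the line without Cre-ERT2 replicate 3 and Sox4 without ERT2 replicate 3, and Ebf1 is under it in 4 of the settings drawn.

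Reported target genes of each factor were then set beside the factor. The lists drew on general knowledge but were chosen with earlier results of these data known, so their counts are not independent evidence on the factors. Over all genes 7.03% were called, 4.05% higher and 2.98% lower, with a median log2 fold change of -0.037, and each list's count stands beside these shares. Of 11 measured genes that PAX5 is known to activate, 1 rose, 2 fell and 8 did not pass, with a median log2 fold change of 0.028. The ETS factor gene Spib rose by 0.79 (SE 0.0478), Rag2 fell by 0.71 (SE 0.0876), and Ciita, the activator of class II MHC genes, fell by 0.16 (SE 0.0378), a call that no fit with an array removed kept (adjusted p up to 0.138) and that also ended after quantile normalization (0.0978), median centring (0.1) and cyclic loess (0.0682). The receptor component Cd79a was at 0.028 and the adaptor Blnk at 0.079, neither called.

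Of 11 measured genes that PAX5 is known to repress, 5 rose, 1 fell and 5 did not pass, with a median of 0.22, beside 4.05% higher, 2.98% lower and a median of -0.037 over all genes. The receptor gene Notch1, which directs T cell fate, averaged 11.17 in Cre-ERT2 and 10.58 in ERT2 and rose by 0.60 (SE 0.0615, limma adjusted p = 0.000680). The cytokine receptor gene Flt3 rose by 0.56 (SE 0.0396) and the chemokine gene Ccl3 by 0.53 (SE 0.0526). Jchain, which joins secreted immunoglobulin, fell by 0.45 (SE 0.0412). The costimulatory receptor gene Cd28 (0.39) and Xbp1 (0.23), a plasma cell and unfolded protein response factor, also rose and were named after their values were seen. The myeloid receptor gene Csf1r was at -0.10 and Prdm1, which drives plasma cell differentiation, at 0.0048, neither called. Csf1r averaged 7.77 in Cre-ERT2 and 7.87 in ERT2, and Prdm1 7.68 in both groups. These were low levels, as the array medians over the tested genes were 8.84 to 8.87. With 1 array left out the list had 5 or 6 members higher and 1 lower, while Pax5 itself was at 0.0074.

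The EBF1 lists are short, and over all genes 4.05% were called higher and 2.98% lower. Of 6 measured genes activated by EBF1, the kinase gene Blk fell by 0.31 (SE 0.0430, limma adjusted p = 0.00324) and the other 5 did not pass: Cd79b was at 0.093, Vpreb1 at 0.081, Igll1 at 0.051, Cd79a at 0.028 and Vpreb3 at -0.006. Of 4 measured genes repressed by EBF1, Id2, an inhibitor that keeps E proteins off DNA, rose by 1.03 (SE 0.0669), its relative Id3 fell by 0.36 (SE 0.0513), and the myeloid factor gene Cebpa (-0.14) and the T cell factor gene Gata3 (-0.058) did not pass.

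FOXO targets moved in both directions. Of 17 measured, 5 rose, 3 fell and 9 did not pass, with a median of 0.061, beside 4.05% higher, 2.98% lower and a median of -0.037 over all genes, and with any array left out the counts were 4 and 3. The genes that fell were Rag2 (-0.71), Il7r, which fell to a mean of 12.42 in Cre-ERT2 against 13.01 in ERT2 (-0.60, SE 0.0372, limma adjusted p = 4.54e-05), and Rag1 (-0.38, SE 0.0415). The lymph node homing receptor gene Ccr7 rose by 0.69 (SE 0.0415). The other members that rose, named after their values were seen, were the egress receptor gene S1pr1 (0.37), the BH3-only gene Bcl2l11 (0.33), the insulin receptor adaptor gene Irs2 (0.24) and Sesn3 (0.17, limma adjusted p = 0.0378). The cell cycle inhibitor gene Cdkn1b was at 0.030 and the homing factor gene Klf2 at 0.029, neither called.

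Of 10 measured genes of the PI3K and AKT pathway, which controls FOXO proteins by phosphorylation, limma called 0 at an adjusted p under 0.05, with 2 at an unadjusted p under 0.05. Over all genes 7.03% were called, and at least 4557 of 19938 had an unadjusted limma p under 0.05. The lipid phosphatase gene Inpp5d was at -0.16 (adjusted p = 0.0892) and Mtor at 0.13 (adjusted p = 0.143). Inpp5d was called in other settings, for example without Cre-ERT2 replicate 3 (-0.20, adjusted p = 0.0321). An array of RNA does not read phosphorylation or location of the FOXO proteins.

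The counts in the next lists stand beside 4.05% higher and 2.98% lower over all genes. Of 9 measured Ikaros targets 2 rose and 0 fell: Dntt, the terminal transferase gene, by 0.86 (SE 0.0741) and the cyclin gene Ccnd2 by 0.18 (SE 0.0348), the second a call lost without replicate 1 or 2 of either group (adjusted p up to 0.0792) and after median centring (0.0571). Of 9 measured LEF/TCF targets the cyclin gene Ccnd1 rose by 0.60 (SE 0.0519) and Lgr5 fell by 0.19 (SE 0.0381), while Axin2, a feedback inhibitor of Wnt signalling, was at -0.077 and not called. The Lgr5 call was lost without replicate 1 of either group, Cre-ERT2 replicate 2 or ERT2 replicate 3 (adjusted p up to 0.104). Of 5 genes listed for octamer factors and POU2AF1, Cxcr5 rose by 1.02 (SE 0.0604), Spib rose and the fatty acid transporter gene Cd36 fell by 0.70 (SE 0.0400), while the kinase gene Btk (-0.087) and the channel gene Kcnn4 (0.088) did not pass.

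**Figure D5:**
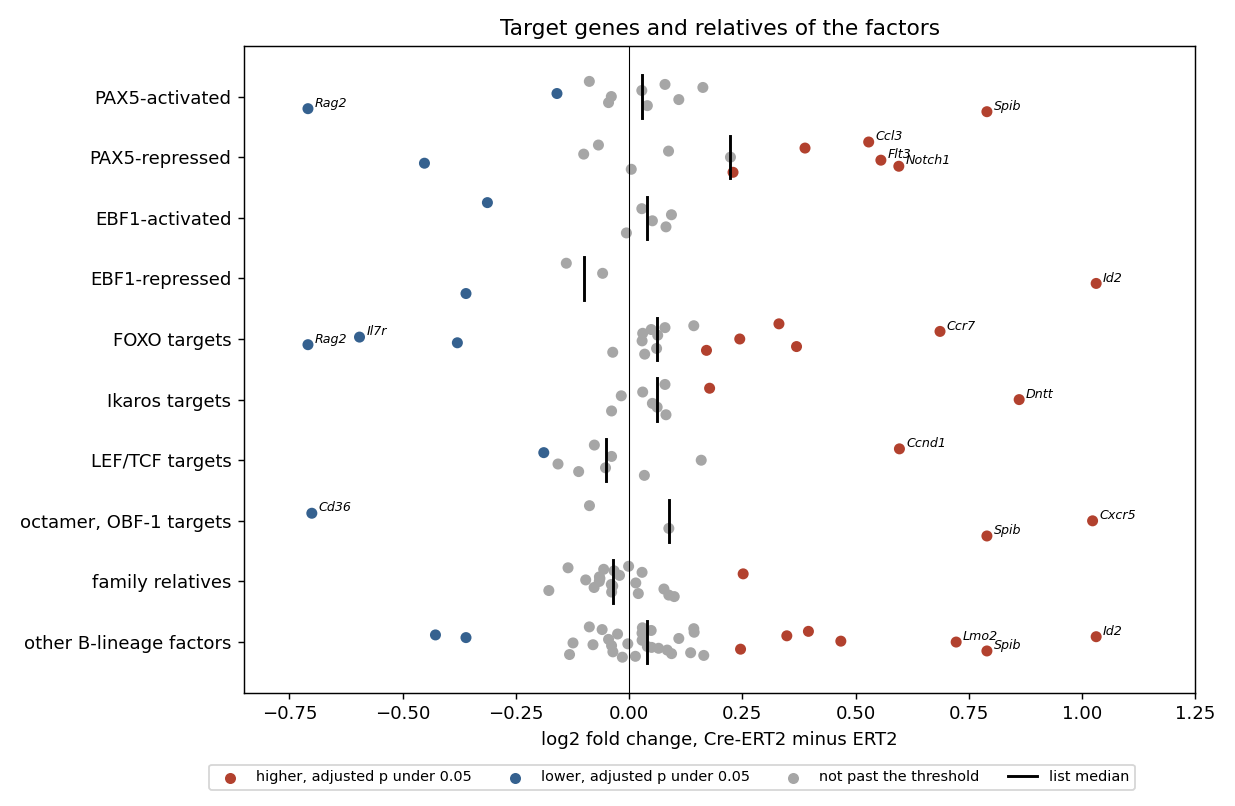
Log2 fold change, Cre-ERT2 minus ERT2 (x axis), of each measured gene in the lists of targets, relatives and other factors (rows), coloured by call, with a bar at the list median. Called genes lie on both sides of 0 in most lists, and the median of the PAX5-repressed list, 0.22, is the furthest from 0.

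Of 21 measured relatives of the members 1 was called, 4.76% of them, near the 7.03% over all genes. Ikzf4, which encodes the Ikaros family protein Eos, rose by 0.25 (SE 0.0412, limma adjusted p = 0.00774), with mean levels of 9.39 in Cre-ERT2 and 9.14 in ERT2, and the other 20 did not pass. Among them Foxo4 was at -0.033, Ikzf5 at -0.021, Pou2f2, which encodes the octamer factor OCT2, at 0.077, and Tcf7l2, a relative of Lef1, at 0.10. The largest uncalled changes were those of Pou2f3 (-0.18, limma adjusted p = 0.107) and Ebf3 (-0.13, limma adjusted p = 0.127). In both, all Cre-ERT2 arrays were lower. Of the 21 relatives 4 had an unadjusted limma p under 0.05, and so had at least 4557 of all 19938 genes. A list of other B-lineage factors also held Id2 and Id3, which stand in the list of genes repressed by EBF1 as well. Of its 35 genes 7 rose, 2 fell and 26 did not pass, with a median of 0.040. Over all genes 4.05% were called higher and 2.98% lower. With 1 array left out 6 or 7 were higher and 2 lower, and it was 6 and 2 with the replicate number as a block. Beside Id2 and Spib these included Lmo2, a bridging protein of blood progenitors (0.72, SE 0.0442), and the Krüppel-like factor gene Klf3 (0.47, SE 0.0573). Erg (0.40), Hhex (0.35) and Runx3 (0.25) also rose and Gfi1b fell by 0.43, beside Id3; these 4 were named after their values were seen. Some genes stand in more than 1 list, Spib in 3 of them, so the lists are not independent.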

How the data were processed

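The 6 arrays, 3 of each group, were compared. Each deposited value is a log2 expression level of 1 probe set. The submitters' processing notes list RMA and Partek 6.5 without a role, and background setting and build are not given in the sources used here. There were 35556 probe sets in the deposited file, of which 21789 had 1 gene symbol in the platform annotation, 1621 several and 12146 none listed; genes found only on probe sets of several symbols were not analysed here. The single-symbol probe set of highest mean stood for each gene.

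Differences, Cre-ERT2 minus ERT2, were fitted on all 19938 genes with limma 3.58.1 in R 4.3.3 (lmFit, eBayes without a trend) with Benjamini-Hochberg adjustment over all of them, and called at an adjusted p under 0.05. Plots used Python 3.11.15 and matplotlib 3.10.9. The pipeline was tested on simulated data. The members and lists were chosen with earlier results of these data known, so their counts are to be read against the shares over all genes, and no p is adjusted over a gene list. The p-values of the 6 pairs of factors were adjusted over those pairs. Named genes were all members, Bcor and, per list, up to 4 called genes of largest absolute change or the 2 of smallest p, plus the 2 of highest mean in marker lists of other cell types. Of the marker genes so named, Cd68, Bcl11b, Cd3e, Gp9, Itga2b, Mzb1, Vim, Pecam1, Col1a2 and Pf4 were not called. Genes named beyond these, called or not, were picked with their values known.

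The alternatives were a replicate block, an intensity trend, array weights, quantile normalization, median centring, cyclic loess, leaving out the dimmest 30% or 50% of genes (10 and 9 of the members passed), the mean of probe sets, an adjusted p of 0.1, each array left out, and limma's treat with a bound of 0.2. Precision is limited by the number of arrays, with a median standard error of 0.0477 over all genes.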

Additional observations from a re-analysis of the deposited data

How the results depend on the processing

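The 10 factors gave 2 calls as reported, 3, with Ebf1 added, under an intensity trend, array weights, either filter on dim genes or an adjusted p of 0.1, 1 with a replicate block or quantile normalization, 0 with treat against 0.2, and 0 to 1 with any array left out. Over all genes 1402 were called, against 805 with a replicate block, 3339 with array weights (39.4% of them higher, against 57.6% as reported), 2271 at an adjusted p of 0.1, 222 with treat, and 743 to 1341 with an array left out; after cyclic loess 67.9% of calls were higher. Without Cre-ERT2 replicate 1 the count was 804, without Cre-ERT2 replicate 2 743, without ERT2 replicate 1 770 and without ERT2 replicate 2 934. Nothing in the labels says that same-numbered arrays pair. Their deviations from the group means correlated at 0.0506, -0.0946 and -0.26, and so few arrays cannot settle whether they pair. With the replicate block Foxo1 had adjusted p = 0.0684 and Sox4 0.0477.

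Estimates near 0 changed sign. Pax5 was at -0.0044 with array weights, -0.00027 without ERT2 replicate 1, and between -0.024 and 0.025 with any array left out. Ikzf3 was at -0.0090 with array weights, -0.0016 without ERT2 replicate 3, and between -0.025 and 0.031 with any array left out. Pou2af1 was at 0.013 with array weights, 0.0078 after quantile normalization, 0.0074 after cyclic loess, 0.0026 without ERT2 replicate 3, and between -0.023 and 0.0069 with any array left out. The other 7 factors and the 6 differences between paired factors kept their direction in the settings run on them. The causes were not tested. The Ikzf2 estimate has no value without the dimmest 50% of genes, which that filter removes.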
